A study of Caenorhabditis elegans with 2 samples.

Results

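Peaks of the forkhead transcription factor FKH-2 were examined at piRNA genes of Caenorhabditis elegans. A pooled peak was counted as a piRNA-locus peak when its deposited peak point lay within 200 bp of a gene of biotype piRNA in the Ensembl annotation of WBcel235, the assembly also called ce11. Of 30000 pooled peaks, 616 met this rule, a share of 2.05% (Wilson 95% interval 1.90% to 2.22%). Most of the pooled list is weak. Ranked by the caller's score, the piRNA-locus peak at rank 7314 had a −log10 q-value of 1.295, and the median rank of the 616 was 15354. Counts and densities below are thus of listed regions, not of sites shown to be bound. The peak lists come from chromatin immunoprecipitation and sequencing (ChIP-seq) of 2 biological replicates of 1 group, whole L3 larvae of mixed sex of strain OP185. All animals had the allele unc-119(ed3) on chromosome III and the transgene wgIs185. The protein targeted was FKH-2 with an eGFP tag, a green fluorescent protein. The antibody label names fkh-2 and not the tag, so signal of tagged and of endogenous FKH-2 cannot be told apart. No group without the transgene and no second condition was analysed here.

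The piRNAs of C. elegans are called 21U-RNAs after their length and their first base, uracil. Each is made from its own short RNA polymerase II transcript, and most of the genes sit in large clusters on chromosome IV. Many carry an upstream element, the Ruby motif, with the core CTGTTTCA ahead of the first base of the 21U-RNA. The mature RNA is bound by the Piwi protein PRG-1 in the germline, where it directs the silencing of foreign sequences. Forkhead proteins are known to recognise 21U-RNA promoters, and the core holds TGTTTC, which resembles the reverse complement of the forkhead core RTAAACA (R is A or G). Since whole larvae were used, germline and somatic sources of a peak cannot be told apart.

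The loci of 4 named piRNA-locus peaks are printed as examples, 3 of them chosen because they carry the Ruby core. Each line gives 70 bases ahead of the 21U-RNA and the 21U-RNA itself on the gene's own strand, with the 21U-RNA and any CTGTTTCA in capitals. The first lies beside the only piRNA-locus peak in the set that passed the irreproducible discovery rate (IDR), and the others were the named loci with the whole core at the usual distance.
21ur-6389, chrIV:5530736-5530826, + strand: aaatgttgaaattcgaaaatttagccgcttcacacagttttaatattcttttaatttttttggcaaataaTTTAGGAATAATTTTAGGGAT
21ur-15402, chrV:14375398-14375488, + strand: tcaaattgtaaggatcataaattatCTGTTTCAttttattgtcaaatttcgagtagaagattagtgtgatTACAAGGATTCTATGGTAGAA
21ur-6496, chrIV:6576592-6576682, - strand: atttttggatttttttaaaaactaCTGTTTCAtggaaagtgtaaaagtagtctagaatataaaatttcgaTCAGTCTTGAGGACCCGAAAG
21ur-3577, chrIV:15913265-15913355, - strand: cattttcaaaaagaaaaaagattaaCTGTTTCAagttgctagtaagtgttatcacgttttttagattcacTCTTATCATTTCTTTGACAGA
The core is present in 3 of these 4 loci and no CTGTTTCA stands in the bases printed ahead of 21ur-6389. The peak beside 21ur-6389 had the highest score of all 616, where score is the value the authors' caller gave each peak, on a scale not stated.

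The windows of 101 bp around the peak points of 3 named members show what lay under the peak in the IDR set, under the only one of the 12 named peaks with RTAAACA in its window, and under a peak beside a tRNA gene. All are on the + strand of ce11, and capitals mark a forkhead core RTAAACA on either strand.
21ur-6389, chrIV:5530658-5530758: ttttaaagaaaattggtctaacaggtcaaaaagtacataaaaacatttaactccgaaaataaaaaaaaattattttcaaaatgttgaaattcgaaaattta
21ur-6496, chrIV:6576510-6576610: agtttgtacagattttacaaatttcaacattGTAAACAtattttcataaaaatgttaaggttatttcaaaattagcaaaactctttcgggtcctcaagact
21ur-5229, chrIV:5967093-5967193: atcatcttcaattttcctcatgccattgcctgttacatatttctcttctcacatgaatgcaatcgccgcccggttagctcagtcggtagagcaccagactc
The window at 21ur-6389 had a GC content of 19.8% and held neither core. The window at 21ur-6496 held 1 RTAAACA. The peak point at 21ur-5229 lay 17 bp from a tRNA gene (WBGene00022903), part of which falls in the printed window.

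The 3 highest-scoring cluster peaks with CTGTTTCA within 50 bp of the peak point are shown because they place the whole core under the peak itself. Capitals mark the core, which reads TGAAACAG on the + strand printed here.
near 21ur-12924, chrIV:14318976-14319076: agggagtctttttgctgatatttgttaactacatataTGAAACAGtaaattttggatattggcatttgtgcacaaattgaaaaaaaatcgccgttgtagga
near 21ur-7423, chrIV:15561661-15561761: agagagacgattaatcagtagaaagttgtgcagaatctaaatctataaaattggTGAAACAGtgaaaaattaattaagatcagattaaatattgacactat
near 21ur-251, chrIV:14311301-14311401: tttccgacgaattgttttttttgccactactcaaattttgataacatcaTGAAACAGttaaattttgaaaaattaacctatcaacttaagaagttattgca
Their pooled scores were 11.5, 11.4 and 11.2, at ranks 2063, 2158 and 2301 of the list. All 3 overlapped a replicate 1 peak, and the peaks near 21ur-12924 and 21ur-251 also overlapped a replicate 2 peak. Each of the 3 lay in an intron of a protein-coding gene. The cores near 21ur-7423 and 21ur-251 lie on the strand of those genes, which carry the core upstream. The core near 21ur-12924 lies on the opposite strand and is not the upstream element of that gene, which has no CTGTTTCA at the usual distance.

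The annotation holds 15363 piRNA genes on the 6 chromosomes, of which 14714, or 95.8%, are on chromosome IV. Chromosome IV held 521 of the 616 peaks, or 84.6%, and chromosomes V, X, II, I and III held 26, 23, 21, 13 and 12. Chromosome V, for example, has 1.31% of the genes and 4.22% of the peaks. The clusters were set from the annotation alone, as runs of 100 kb bins with at least 20 piRNA genes. The left cluster ran from 4.8 to 7.0 Mb with 2807 piRNA genes and 173 piRNA-locus peaks. The right cluster ran from 13.5 to 17.3 Mb with 11534 piRNA genes and 316 piRNA-locus peaks. Together the clusters held 489 piRNA-locus peaks and 787 other peaks, and 127 piRNA-locus peaks lay elsewhere.

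Per base, piRNA loci in the clusters held fewer pooled peaks than the rest of the same clusters. Bases within 200 bp of a piRNA gene carried 0.168 peak points per kb, and the other cluster bases carried 0.255 per kb. The ratio was 0.660 (exact conditional binomial 95% interval 0.588 to 0.740). It was 0.787 (0.656 to 0.942) in the left cluster and 0.664 (0.569 to 0.774) in the right cluster. Over the whole genome, 3.32% of bases lay within 200 bp of a piRNA gene. These intervals, like all others here, cover counting error only, and neighbouring peaks are not independent.

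The replicates did not show this to the same degree. In the list of replicate 1 the ratio was 0.789 (0.708 to 0.879), below 1. In the list of replicate 2 it was 0.995 (0.892 to 1.11), with 0.219 peaks per kb near piRNA genes and 0.220 beyond. The lower density of the pooled list was thus also seen in the list of replicate 1 and was not detectable in that of replicate 2. The intervals of the replicates do not overlap, and the difference between them was not tested.

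Outside the clusters the pooled list showed no such difference. Bases within 200 bp of the scattered piRNA genes carried 0.306 pooled peaks per kb and all other bases outside the clusters 0.305, a ratio of 1.01 (0.838 to 1.196). Peaks per kb at cluster piRNA loci were thus 0.549 times those at piRNA loci elsewhere (0.451 to 0.673). The clusters as a whole, piRNA loci or not, held 0.698 times the peak density of the rest of the genome (0.659 to 0.738). In the replicate lists, cluster loci were at 0.669 times (0.551 to 0.819) and 0.768 times (0.630 to 0.943) the density of loci elsewhere, in replicate 1 and replicate 2.

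Base composition and exon cover also differed between cluster bases near piRNA genes and the other cluster bases. The median GC content of the 101 bp windows was 28.7% over cluster bases within 200 bp of a piRNA gene and 34.7% over the other cluster bases. Exons of protein-coding genes covered 10.5% of the former and 28.6% of the latter. Without exon bases the pooled density ratio was 0.699 (0.613 to 0.797), beside 0.660 over all bases. Within bands of GC content it was 0.798 (0.647 to 0.985) under 30%, 0.808 (0.668 to 0.975) from 30 to 40% and 0.870 (0.669 to 1.12) over 40%. The pooled difference in density was smaller within each band than over all bases, and over 40% the interval reached past 1. In replicate 1 the within-band ratios were 1.06 (0.862 to 1.31), 0.941 (0.791 to 1.12) and 0.858 (0.655 to 1.11), so no band differed beyond counting error. In replicate 2 they were 1.00 (0.832 to 1.21), 1.196 (0.998 to 1.43) and 1.08 (0.817 to 1.42).

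**Figure D1:**
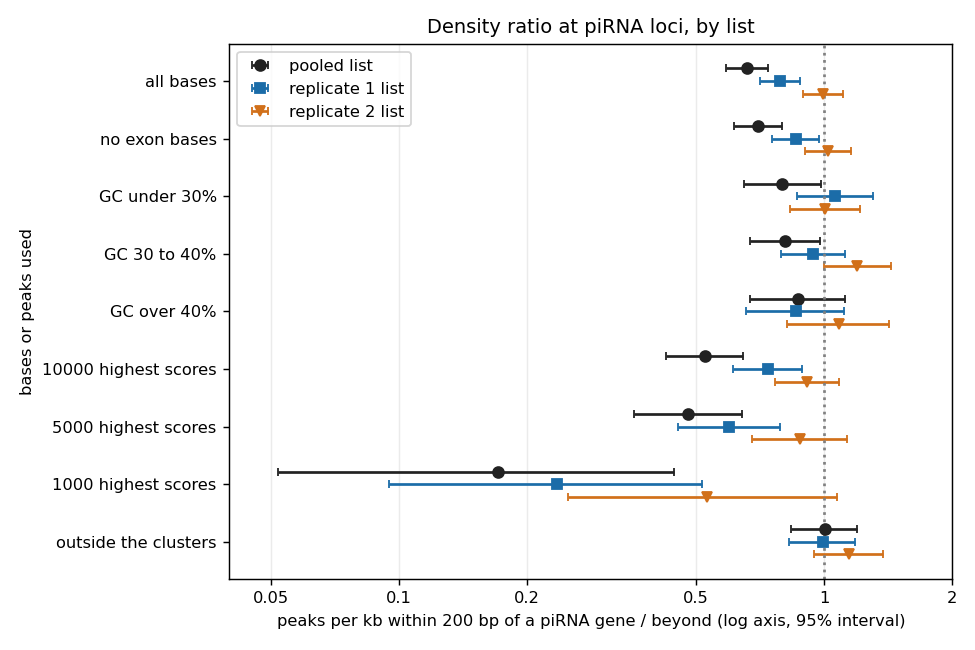
Ratio of peaks per kb within 200 bp of a piRNA gene to peaks per kb beyond, on a log axis, for the pooled list (circles), replicate 1 (squares) and replicate 2 (triangles), with exact conditional binomial 95% intervals. All rows are within the chromosome IV clusters except the last. With all bases the pooled ratio was 0.660 and that of replicate 2 was 0.995, and among the 1000 highest scores all 3 points lie below 1, with an interval that reaches past 1 in replicate 2.

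In the pooled list the density was lowest at the 21U-RNA itself. Bases inside a piRNA gene carried 0.106 pooled peak points per kb (0.0689 to 0.157), from 25 peaks. Bases 1 to 50 bp away carried 0.141 per kb (0.119 to 0.167), and those 51 to 100 bp away 0.199 (0.169 to 0.234). It was 0.191 (0.156 to 0.232) at 101 to 150 bp, 0.182 (0.141 to 0.230) at 151 to 200 bp and 0.261 (0.218 to 0.311) at 201 to 300 bp. In the list of replicate 1 the value inside a piRNA gene was 0.183 per kb (0.132 to 0.247), which is 0.798 times that list's cluster mean (0.577 to 1.07), and at 1 to 50 bp it was 0.188 (0.162 to 0.217). In the list of replicate 2 the value inside a piRNA gene was 0.221 per kb (0.165 to 0.290), near that list's cluster mean of 0.219. Neither replicate list was thus lower inside the genes beyond counting error. At 1 to 50 bp both replicate lists were lower than their cluster means, with replicate 2 at 0.175 (0.150 to 0.203). Replicate 2 was above its mean at 51 to 100 bp, at 0.266 (0.231 to 0.305).

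**Figure D2:**
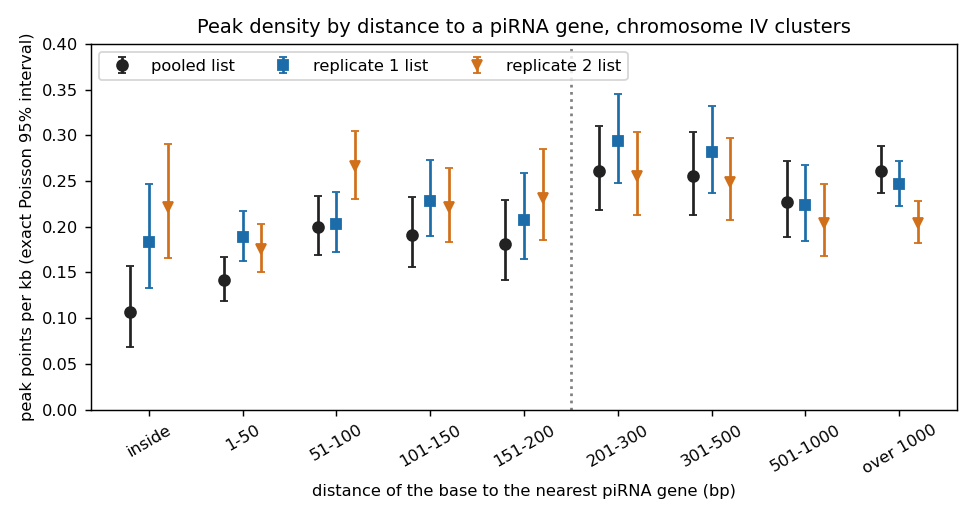
Peak points per kb of the chromosome IV clusters against distance to the nearest piRNA gene, for the 3 lists, with exact Poisson 95% intervals. The dotted line marks 200 bp. The pooled points are at 0.106 inside the genes, 0.182 to 0.199 from 51 to 200 bp and 0.261 at 201 to 300 bp; the points inside the genes are at 0.183 in replicate 1 and 0.221 in replicate 2.

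In the pooled list no excess of peaks stood over the upstream element. The profile along the gene's strand was not made for the replicate lists. Counted along the strand of the nearest piRNA gene from the first base of its 21U-RNA, bases 50 to 1 upstream, where the Ruby core sits, carried 0.156 peak points per kb (0.124 to 0.195). Bases 51 to 100 upstream carried 0.194 (0.153 to 0.243), and positions 21 to 70, just past the 21U-RNA, carried 0.126 (0.0965 to 0.161). Upstream bases held 247 of the 489 cluster peaks, or 50.5%, and made up 46.8% of the bases. Downstream bases held 217 peaks, or 44.4%, on 45.1% of the bases.

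The density did not rise as the number of piRNA genes nearby went from 1 to 6. With 1 piRNA gene within 200 bp the pooled density was 0.180 per kb (0.157 to 0.205), with 2 or 3 it was 0.162 (0.141 to 0.185), and with 4 to 6 it was 0.149 (0.112 to 0.195). Only 14.3 kb lay near 7 or more, with 3 peaks or 0.210 per kb (0.0434 to 0.614).

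Scores of the piRNA-locus peaks were of middling size. The score was used only to rank peaks within a list. The median was 6.14 (order-statistic 95% interval 5.98 to 6.35) over the 616 piRNA-locus peaks and 6.20 (6.17 to 6.22) over all other pooled peaks. Other cluster peaks had a median of 6.39 (6.19 to 6.61). The quartiles of the piRNA-locus peaks were 5.04 and 7.82, and the range was 4.28 to 22.8. The highest score was 62.1 among other cluster peaks and 85.4 in the whole list. The medians in the clusters and elsewhere were 6.13 (5.96 to 6.35) and 6.16 (5.64 to 6.71), so median scores at cluster and other piRNA loci did not differ beyond counting error.

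The difference was at the top of the list. Of the 1000 highest pooled scores, which make up 3.33% of the list, 9 were piRNA-locus peaks. These were 1.46% of the piRNA-locus peaks, against 3.37% of all other peaks, a difference of -1.91 percentage points (Newcombe 95% interval -2.63 to -0.604). Against other cluster peaks, of which 3.94% were in the top 1000, the difference was -2.48 points (-4.22 to -0.748). Both replicate lists showed it: the difference was -1.69 points (-2.44 to -0.435) in replicate 1 and -1.71 (-2.62 to -0.330) in replicate 2. In the pooled list, 5 of the 489 piRNA-locus peaks in the clusters were in the top 1000, or 1.02%. Elsewhere 4 of 127 were, or 3.15%, close to the share of all other peaks. The difference between cluster and other piRNA loci was not tested.

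The IDR set held 1 piRNA-locus peak among 203. That is 0.162% of the 616 piRNA-locus peaks (0.0287% to 0.914%), where 0.677% of all pooled peaks are in that set. By rank, the piRNA-locus share was 0.493% (0.0870% to 2.74%) at ranks 1 to 203 and 1.00% (0.509% to 1.97%) at ranks 204 to 1000. It was 2.10% (1.70% to 2.59%) at ranks 1001 to 5000 and 2.12% (1.86% to 2.42%) over the last 10000. The 203 highest scores of each replicate's own list held 0 piRNA-locus peaks, which allows a share of up to 1.86% (Wilson limit). Over the whole lists, 712 peaks of replicate 1 (2.37%) and 754 of replicate 2 (3.05%) lay at piRNA loci.

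**Figure D3:**
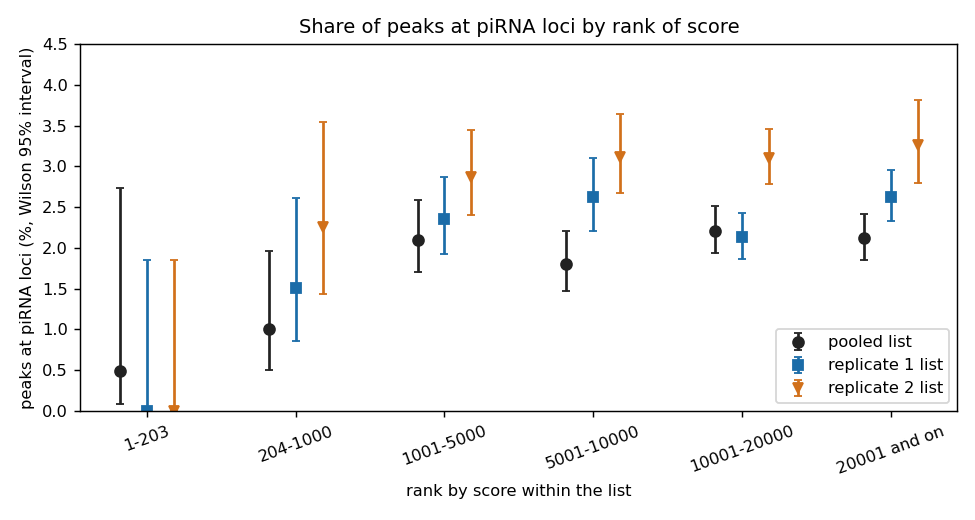
Share of peaks within 200 bp of a piRNA gene by rank of score in the pooled list (circles), replicate 1 (squares) and replicate 2 (triangles), with Wilson 95% intervals. The first band holds 1, 0 and 0 such peaks of 203, and the shares are at or above 1.80% from rank 1001 on in all 3 lists.

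Support in the replicates was checked by overlap of at least 1 bp with a peak of each replicate's own list. Those lists hold 30000 and 24744 regions in replicate 1 and replicate 2, and the overlap expected by chance was not computed. The pooled peaks were derived from the reads of both replicates, so the lists are not independent. Replicate 1 supported 315 piRNA-locus peaks, or 51.1% (47.2% to 55.1%), where 58.1% of all pooled peaks were supported. Against all other peaks the difference was -7.09 points (-11.1 to -3.12), and against other cluster peaks it was -7.06 points (-12.3 to -1.81). Replicate 2 supported 243, or 39.4% (35.7% to 43.4%), where the share over all pooled peaks was 40.6%. Against all other peaks the replicate 2 difference was -1.13 points (-4.95 to 2.82), within counting error. Against other cluster peaks it was -4.77 points (-9.92 to 0.436), with an interval that also included 0.

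Both replicates supported 89 piRNA-locus peaks, or 14.4% (11.9% to 17.4%), where the share over all pooled peaks was 17.5%. The difference from all other peaks was -3.14 points (-5.74 to -0.115). Neither list overlapped 147 of the piRNA-locus peaks, or 23.9%, which was 5.07 points above all other peaks (1.84 to 8.62). Among pooled ranks 1001 to 5000, replicate 1 supported 65.5% of piRNA-locus peaks and 78.3% of the others, a difference of -12.8 points (-23.6 to -3.46). At ranks 5001 to 10000 and in the bands beyond, that interval included 0.

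Support at cluster and at other piRNA loci did not differ beyond counting error. Replicate 2 overlapped 39.7% of cluster peaks at piRNA loci (35.4% to 44.1%) and 38.6% of those elsewhere (30.6% to 47.3%), a difference of 1.09 points (-8.57 to 10.2). Replicate 1 overlapped 50.7% and 52.8%, a difference of -2.04 points (-11.6 to 7.66). These intervals are wide, because 127 peaks lay outside the clusters.

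The 10 highest-scoring piRNA-locus peaks fell on chromosomes I, II, IV and V. The highest, chrIV:5530563-5530852, scored 22.8 in the pooled list at rank 189 and was the single IDR peak. Its point lay 98 bp upstream of 21ur-6389 in intergenic DNA, with 3 piRNA genes within 200 bp. It scored 11.8 in replicate 1, at rank 573, and 7.73 in replicate 2, at rank 825. Both replicates therefore held it below their own 203 highest scores.

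The next 2 lay outside the clusters. On chromosome II, the peak near 21ur-10456 scored 18.7, with 3.93 in replicate 1 at rank 17089 and 8.62 in replicate 2 at rank 493. On chromosome I, the peak near 21ur-12279 scored 16.9, with 12.01 in replicate 1 and 5.83 in replicate 2. Its point lay in an exon of atp-1, which encodes a subunit of the mitochondrial ATP synthase, 6 bp from the start of a transcript. At such a site a peak at the piRNA gene and one at the promoter of the protein-coding gene cannot be told apart.

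Other high peaks also shared their place with another gene. The peak near 21ur-9138 scored 14.1 in the pooled list, 5.27 in replicate 1 and 8.42 in replicate 2, and its point lay in an exon of ccch-5, 30 bp from a transcript start. The peak near 21ur-15402 on chromosome V scored 15.2, with 12.1 in replicate 1 and 2.28 in replicate 2. Its point lay in an intron of unc-39, which encodes a homeodomain transcription factor, 138 bp upstream of the 21U-RNA. The peak near 21ur-5229 at the tRNA gene scored 14.3, with 7.08 in replicate 1 and 9.95 in replicate 2. Only the locus of 21ur-15402 carries the whole Ruby core among these 3.

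A few were held by 1 replicate alone. The peak near 21ur-6496, with the Ruby core upstream and RTAAACA under the peak, scored 14.1 in the pooled list and 7.95 in replicate 1, and no replicate 2 peak overlapped it. The peak near 21ur-14797 on chromosome I scored 14.2 and 11.2 in replicate 1, again with no replicate 2 peak, and its point lay 142 bp from a transcript start of tmed-3. The peak near 21ur-8847 scored 13.6 and 7.49 in replicate 2, with no replicate 1 peak. The peak near 21ur-6304 was in both, at 16.02 pooled, 8.93 in replicate 1 and 2.29 in replicate 2.

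The highest replicate 2 score at a piRNA locus was 9.98, at rank 256 of that list, near 21ur-3577, one of the loci printed with the whole core. That peak scored 11.2 in the pooled list and no replicate 1 peak overlapped it. The peak near 21ur-13977 on chromosome V scored 12.7 pooled, 9.48 in replicate 1 and 8.34 in replicate 2. Its point lay in an intron of C15H11.1, 99 bp from a transcript start. None of these 12 named peaks held CTGTTTCA within 50 bp of its point.

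**Figure D4:**
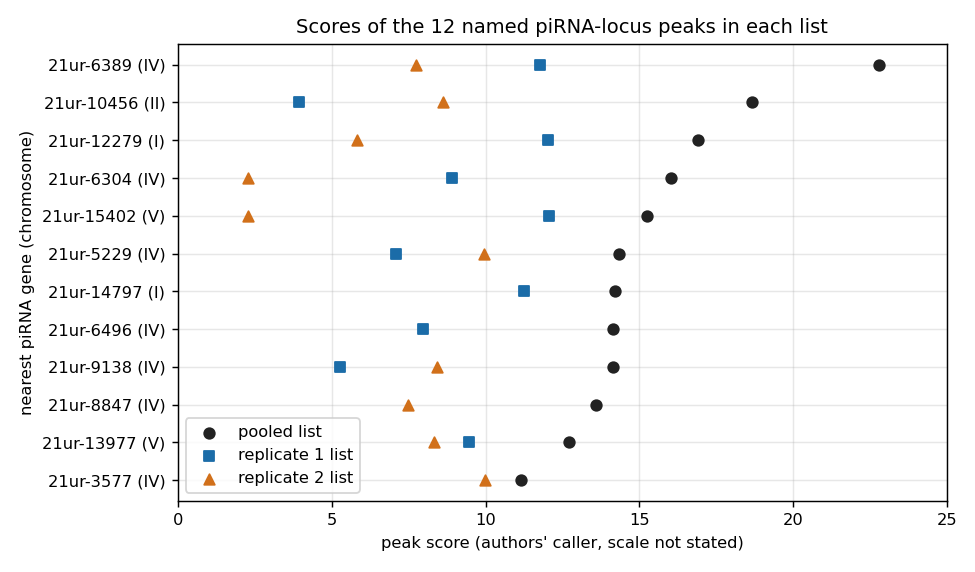
Peak scores of the 12 named piRNA-locus peaks in the pooled list (circles), replicate 1 (squares) and replicate 2 (triangles), by nearest piRNA gene and chromosome; a missing symbol means that no peak of that list overlapped. The pooled scores run from 22.8 to 11.2, and for 4 peaks 1 replicate has no symbol.

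At the edge of the rule, the 3 piRNA-locus peaks farthest from a gene lay 200 bp away and scored 6.51, 6.44 and 5.31. The 3 nearest peaks left out lay 201 bp away and scored 5.32, 4.79 and 4.71.

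Most cluster peaks at piRNA loci lay outside protein-coding genes. In the clusters, 58.5% of their points were intergenic, 26.8% in introns and 14.7% in exons of protein-coding genes. Over all cluster bases within 200 bp of a piRNA gene the shares were 59.4%, 30.1% and 10.5%. The exon share of the peaks (11.9% to 18.1%) was 4.20 points higher than that of the bases (1.34 to 7.62), and the intervals of the other shares included those of the bases. Other cluster peaks were at 37.9%, 26.4% and 35.7%, the last with an interval of 32.4% to 39.1%. Of all 616 piRNA-locus peaks, 10, or 1.62%, lay within 200 bp of another small RNA gene, 5 of them a tRNA gene. The share was 1.38% over all pooled peaks. In the clusters it was 1.02% for piRNA-locus peaks and 3.18% for other peaks.

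Both strands were searched for motifs up to 50 bp from each peak point. CTGTTTCA, the Ruby core, was at 76 of 616 piRNA-locus peaks, or 12.3% (9.97% to 15.2%), and at 11 of 787 other cluster peaks, or 1.40% (0.782% to 2.49%). The difference was 10.9 points (8.34 to 13.8). In the clusters alone 14.9% of piRNA-locus peaks held it (12.04% to 18.4%), and so did 14.0% of the same windows around every cluster base within 200 bp of a piRNA gene. The difference from that share was 0.956 points (-1.93 to 4.39), within counting error. The listed cluster peaks at piRNA loci thus held the Ruby core about as often as the sequence around piRNA genes did. Most of these peaks are weak, and strong ones were not compared with those windows on their own. The match therefore cannot decide whether bound sites favour the core. Of the 70 cluster peaks at piRNA loci among the 5000 highest pooled scores, 11 held the core. Outside the clusters 3 of 127 piRNA-locus peaks held it, or 2.36% (0.807% to 6.72%).

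The forkhead core gave the same picture, with the same limit. RTAAACA was at 35 piRNA-locus peaks, or 5.68% (4.11% to 7.80%), and at 3.30% of other cluster peaks (2.26% to 4.80%), a difference of 2.38 points (0.213 to 4.74). Against all other pooled peaks, of which 4.12% held it, the difference was 1.56 points (-0.0251 to 3.69), within counting error. In the clusters 5.93% of piRNA-locus peaks held it (4.16% to 8.39%), where the windows of every base within 200 bp gave 5.03%. The difference was 0.897 points (-0.873 to 3.35). The looser RYAAAYA (Y is C or T), which every RTAAACA also matches, was at 22.7% of the cluster peaks and in 22.5% of those windows.

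The shorter TGTTTC, which lies within every CTGTTTCA, was at 28.4% of the cluster peaks (24.6% to 32.6%) and in 30.6% of windows around bases near piRNA genes. GAGAGA, a simple repeat, was at 4.29% of the cluster peaks (2.83% to 6.48%), in 3.08% of those windows and at 10.5% of other cluster peaks (8.59% to 12.9%). The difference between the peak groups was -6.25 points (-9.02 to -3.32). Around the cluster bases beyond 200 bp, GAGAGA was in 5.81% of windows.

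**Figure D5:**
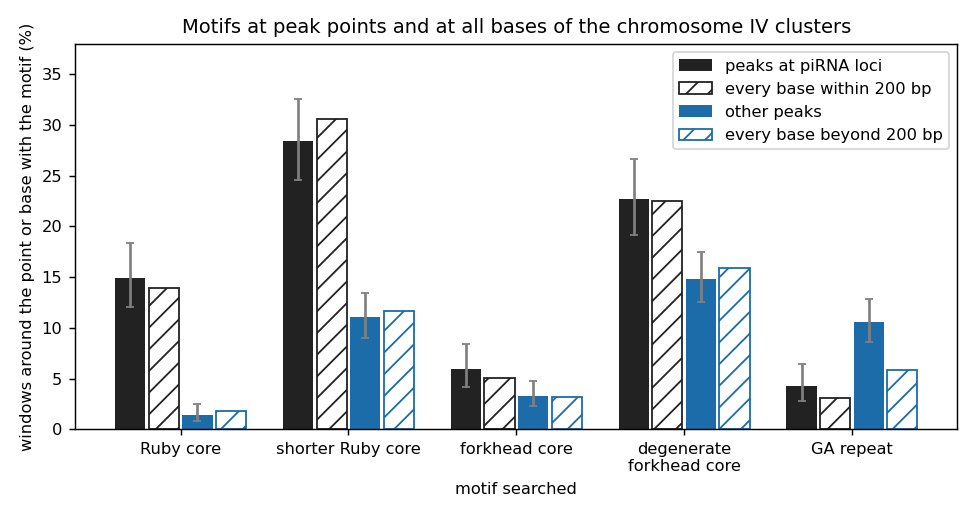
Percent of 101 bp windows in the chromosome IV clusters with each motif, at piRNA-locus peaks and other peaks (filled bars, Wilson 95% intervals) and around every base within or beyond 200 bp of a piRNA gene (hatched bars). At piRNA loci the intervals of all 5 motifs include the hatched bar beside them, with 14.9% and 14.0% for the Ruby core.

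Cluster peaks at piRNA loci with and without the Ruby core had overlapping intervals in score and in support. The 73 with it had a median score of 6.16 (5.72 to 6.63) and the 416 without it 6.13 (5.91 to 6.35). Their highest scores were 11.5 and 22.8. Replicate 2 supported 39.7% of each, with intervals of 29.3% to 51.2% and 35.1% to 44.4%. Replicate 1 supported 47.9% (36.9% to 59.2%) and 51.2% (46.4% to 56.0%).

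Counted by gene, 1095 of the 15363 piRNA genes had a pooled peak point within 200 bp, or 7.13%. In the clusters 6.75% did (6.35% to 7.17%), and elsewhere 12.4% did (10.5% to 14.6%), a difference of -5.68 points (-7.88 to -3.75). A single peak can count for several genes: the 489 cluster peaks lay near 968 genes. The intervals by gene treat genes as independent and are thus too narrow. Of the 14341 cluster genes, 5017 carry CTGTTTCA on their own strand 20 to 70 bases ahead of the 21U-RNA, with a median of 38 bases between them. A pooled peak lay near 350 of these, or 6.98% (6.30% to 7.71%), and near 618 of the 9324 without the core, or 6.63% (6.14% to 7.15%). The difference was 0.348 points (-0.504 to 1.23), within counting error. In the lists of replicate 1 and replicate 2 the same difference was -0.725 (-1.62 to 0.204) and -0.252 points (-1.23 to 0.754). The IDR peak was near 3 piRNA genes, and none of the 3 has the core.

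Genes of the piRNA pathway were looked up in the same lists. Of 28 genes listed, 27 were matched as protein-coding, and 8 had a pooled peak point within 500 bp of a transcript start, or 29.6% (15.9% to 48.5%). Over all 19973 protein-coding genes the share was 36.0%. None of the 27 had an IDR peak there, where 0.491% of all protein-coding genes did. The pathway share was thus near the background.

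None of the 12 listed transcription genes had such a pooled peak, where the share over all protein-coding genes was 36.0%. The upper Wilson limit of 0 of 12 was 24.2%. The 12 include snpc-4 and prde-1, which act in transcription at 21U-RNA promoters, and the forkhead genes unc-130, fkh-3, fkh-4 and fkh-5. The replicate lists did hold peaks within 500 bp of a start of some of them, at unc-130 and fkh-4 in replicate 1 and at snpc-4 and snpc-1.2 in replicate 2. The share over all protein-coding genes was not computed for the replicate lists, so their counts here cannot be set against a background. Within 2000 bp, 7 of the 12 had a pooled peak, where 74.98% of all protein-coding genes did. Of 9 genes listed under processing, 3 had a pooled peak within 500 bp of a start. These were tofu-1, and tost-1 and erh-2, which encode proteins of the PETISCO complex, with scores of 4.91, 6.50 and 8.24. Each overlapped a replicate 1 peak and no replicate 2 peak. Within 500 bp of a start, the list of replicate 1 held peaks for 6 of the 9 genes and that of replicate 2 for 0.

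Of 6 effector and silencing genes 5 had one. The peak at prg-1, the gene of the Piwi protein itself, scored 4.70 at rank 25895, lay 497 bp from a start and overlapped a replicate 1 peak. Those at hrde-1 and wago-1, which encode Argonautes of the secondary small RNA pathway, scored 5.19 and 4.99. Those at deps-1, a P granule gene, and simr-1 scored 7.87 and 7.92 and overlapped peaks of both replicates. The highest rank among the 8 was 6907, at erh-2. The 5 of 6 is a share of 83.3% (43.7% to 97.0%), beside the 36.0% of all protein-coding genes. The lists of replicate 1 and replicate 2 held peaks within 500 bp of a start for 2 and 3 of these 6 genes, again with no background share computed. The wago-1 peak overlapped a peak of neither list.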

How the data were processed

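The authors deposited ce11 peak lists for each replicate, for both replicates pooled and for an IDR set, with a score and a −log10 q-value per peak. Per the deposited text listing, the lists of the replicates and the pooled list served as IDR input and were made from alignments with a control file. The pooled list is mostly weak regions, with a −log10 q-value of 1.295 at the piRNA-locus peak of rank 7314 among 30000. The lists end at q-values of 0.356 in replicate 1, 0.0502 in replicate 2 and 0.541 in the pooled list. Aligner, caller, their versions and the IDR threshold are not given in the sources used here. No list gives read numbers, so depth is unknown. Peaks were 290 bp wide in the pooled and replicate 1 lists and 250 bp in replicate 2. The ce10 lists were not used.

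Peak points (start plus offset) were measured against gene bodies of Ensembl release 115. Sequences were read from the RefSeq genome of WBcel235. Clusters joined bins across gaps of up to 5 bins into runs of at least 1 Mb. Shares have Wilson, differences of shares Newcombe, densities exact Poisson, density ratios exact conditional binomial and medians order-statistic 95% intervals, and "higher" or "lower" means that the interval leaves out 0, or 1 for a ratio. No p-value was computed, since peaks are not replicates. The labels name 2 biological replicates and do not say how they were grown. The functions were tested on simulated data. Python 3.11.15, numpy 2.4.6, pandas 2.3.3, scipy 1.17.1 and matplotlib 3.10.9 were used.

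Named peaks are the 10 with the highest pooled score, any in the IDR set, the 5 with the highest replicate 2 score, the 3 highest outside the clusters and the 3 on either side of the distance limit. The 3 peaks printed with the core under them were chosen after their values were seen. Members, motifs, pathway list and alternatives were chosen with earlier results of these data known. Alternatives covered distances, cluster and score limits, overlap, exons, motif windows and each replicate's list. The GC bands, the comparison with all cluster bases, single clusters, the top 1000, peaks of both replicates and the bands within each replicate's list were added after seeing the data.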

Additional observations from a re-analysis of the deposited data

How the results depend on the processing

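Of 68 alternatives over the 11 results, 45 kept direction and side of the limit; the cause of the other changes was not tested unless the setting itself shows it. The number of piRNA-locus peaks was 385 within 100 bp and 1035 within 500 bp, and 712 to 754 in the single replicate lists. The density ratio was 0.789 to 0.995 with 1 replicate's list; over 40% GC it was 0.870. In replicate 1 it was 1.06, 0.941 and 0.858 in the rising GC bands; in replicate 2 it was 1.00, 1.196 and 1.08, and 1.02 without exons. Without exons replicate 1 stayed below 1 at 0.857 (0.755 to 0.972), and its 1000, 5000 and 10000 highest scores gave 0.236, 0.599 and 0.737, each with an interval below 1. Among the 1000, 5000 and 10000 highest replicate 2 scores it was 0.531, 0.876 and 0.912, each with an interval that reached past 1. The shortage among strong peaks was -1.60 points at the 5000 highest scores, with an interval that included 0, and -1.71 to -1.69 in the single replicate lists.

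Replicate 2 support turned to 0.0805 points above other peaks among the 10000 highest scores, where the main difference also included 0. The Ruby core difference fell to 0.956 points against every base near piRNA genes. The forkhead core difference was 1.56 points against all other pooled peaks, 1.62 among the 10000 highest scores and 0.897 against every base, all within counting error. The difference between piRNA genes with and without the core was -0.725 to -0.252 points in the single replicate lists. Within 2000 bp of a start, 19 pathway genes had a peak, where 74.98% of all protein-coding genes did. No paired analysis was possible because the study has 1 group. Depth is unknown, and with 2 replicates that differ, no spread between animals can be given for any of these values.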
